A study of Bos taurus with 34 samples.

Results

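PRLR, the gene of the prolactin receptor, lies on chromosome 20 of cattle, and 38 other genes of that chromosome with a midpoint within 5 Mb of its midpoint were measured in liver. They were chosen by position from the 14161 genes of a comparison between daughters with and without the SLICK allele of PRLR, with PRLR itself and the complement genes C6, C7 and C9 left out by name. Of these 3 complement genes, C9 lies inside the window. The study sequenced 34 liver samples from animals labelled Senepol. The comparison used here concerns the 18 samples of TruSeq mRNA libraries, all taken from daughters of Blanco or Lone Ranger, which are slick bulls. Of these, 10 samples were SLICK, with 1 copy of the allele (5 daughters of each bull), and 8 were FREE, with 0 copies (7 daughters of Lone Ranger and 1 of Blanco). The other 16 samples, from animals with 2 copies (S2, 11 samples) or 1 copy (S1, 5 samples) in SMARTer total RNA libraries, were not analysed here. No label gives an age.

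The SLICK allele shortens the prolactin receptor and gives cattle a sleek, short coat. A bull with 1 copy hands each daughter either the chromosome segment that carries the allele or its counterpart, and genes that lie close to PRLR are usually inherited with it. SLICK and FREE daughters can therefore carry different paternal versions of the neighbouring genes as well as of PRLR. The neighbours do not form a pathway: they include cilium genes, metabolic enzymes of the hepatocyte, ribosome and tRNA factors, chromatin proteins and cytokine receptors.

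The columns of single libraries are headed by animal numbers found in no sample label, so no value could be tied to a labelled sample or a group, nor the columns checked to be the labelled samples. They were not used in any step, and whether CPLANE1, RANBP3L or any other gene divides the animals into discrete levels was not examined here. All results come from the authors' deposited table, which gives for each gene a log2 fold change, read from the table's name as SLICK over FREE with no further check possible, an average level in log2 CPM (counts scaled to equal library size), an F score and p-values. Standard errors (SE) and 95% intervals were derived from the log2 fold change and the F score. The 2 bulls are unevenly divided between the genotypes, and the terms of the authors' model are not stated, so genotype and sire cannot be fully told apart. The label of the tissue was checked against 7 hepatocyte markers, all of which were measured, at 8.09 (APOA1) to 15.9 (ALB) log2 CPM per the authors' deposited table.

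No gene of the window differed between SLICK and FREE liver past an adjusted p of 0.05 over all genes (0 of 38; 0.501% of all genes did, edgeR being the tool that the submitters' notes name). Per the authors' deposited table the nearest was CPLANE1, a protein of the ciliary base, with a log2 fold change of -0.55 (SE 0.13) and an adjusted p of 0.0568. RANBP3L, a Ran-binding protein that exports SMAD proteins from the nucleus in mouse cells, had the window's largest log2 fold change per the authors' deposited table, 1.75 (SE 0.46), with an adjusted p of 0.0818. With an adjusted p under 0.10 as the bound, the authors' deposited table held 3 of the 38 genes (CPLANE1, RANBP3L and the threonyl-tRNA synthetase TARS1), against 2.77% of all genes.

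Of the 38 genes, 9 (23.7%) had an unadjusted p under 0.05 per the authors' deposited table, against 16.0% of all genes. At the share of all genes, 6.08 of the 38 would have had such a p. Of the 9, 3 had a positive log2 fold change (SLC1A3, RANBP3L and AMACR), against a background of 7.22% of all genes, and 6 a negative one (CPLANE1, NADK2, SKP2, CAPSL, SPEF2 and TARS1), against 8.79%. At an unadjusted p under 0.01 there were 4 (CPLANE1, RANBP3L, TARS1 and CAPSL), or 10.5%, against 6.36% of all genes per the authors' deposited table. These shares are a description: neighbouring genes share their animals and their chromosome segment, and no test of the shares was made.

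The typical size of a difference in the window lay close to that elsewhere. Per the authors' deposited table, the 38 genes had a median absolute log2 fold change of 0.14 (quartiles 0.09 and 0.32), against 0.11 for the other 170 genes of chromosome 20 and 0.11 for all genes. The upper quartile differed more, at 0.32 for the window against 0.20 for the other genes of the chromosome and 0.24 for all genes per the authors' deposited table. An absolute log2 fold change over 0.4 was found for 8 of the 38 genes (21.1%), against 8.82% of the other genes of the chromosome and 11.8% of all genes per the authors' deposited table. The median log2 fold change with its sign was -0.09, and 25 of the 38 values were negative (65.8%), against 60.0% on the remainder of the chromosome and 51.8% over all genes per the authors' deposited table.

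**Figure D1:**
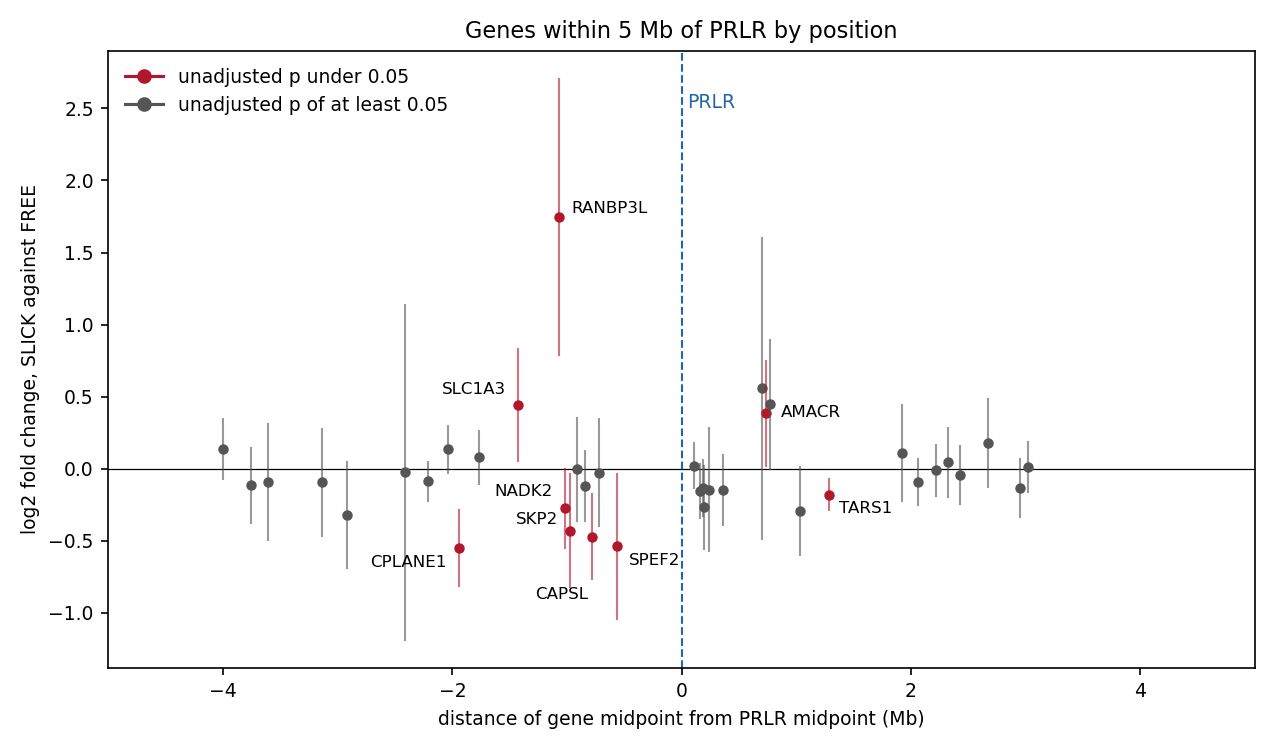
Log2 fold change of SLICK against FREE liver (vertical axis) by distance of each gene's midpoint from the PRLR midpoint in Mb (horizontal axis) for the 38 genes, with points for values of the authors' deposited table and lines for the 95% intervals derived from its F score. The 9 genes in red had an unadjusted p under 0.05 and all lie within 2.5 Mb of PRLR, 7 of them on the lower-coordinate side. C9, left out by name and not drawn, lies 3.93 Mb from PRLR on that side. Its unadjusted p per the authors' deposited table was 0.0339.

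The genes with a small p are given next by position, and no difference between positions was tested. By distance, an unadjusted p under 0.05 was found per the authors' deposited table for 4 of 15 genes under 1 Mb from PRLR, 5 of 15 at 1 to 2.5 Mb and 0 of 8 beyond 2.5 Mb, against 16.0% of all genes. With so few genes, 0 of 8 lies near that share. C9, left out by name, lies in this last range at 3.93 Mb. Its log2 fold change per the authors' deposited table was 0.28 (SE 0.12, unadjusted p 0.0339), so the 0 depends on leaving it out. On the lower-coordinate side of PRLR, again without C9, 7 of 19 genes (36.8%) had an unadjusted p under 0.05 per the authors' deposited table. On the higher-coordinate side 2 of 19 (10.5%) did, beside the same 16.0%. Across the 38 genes the absolute log2 fold change of the authors' deposited table had a Spearman rho of -0.32 and a Pearson r of -0.25 with distance. The same absolute log2 fold change had a Spearman rho of -0.38 with the average level per the authors' deposited table. Larger differences thus tended to go with lower levels, with exceptions such as AMACR (0.38 at 6.17 log2 CPM) and GDNF (-0.02 at -3.45 log2 CPM). All points of these correlations share the same libraries. The gene nearest to PRLR, the mitochondrial aminotransferase AGXT2 at 0.105 Mb on the higher-coordinate side, had a log2 fold change of 0.02 (95% interval -0.14 to 0.18) per the authors' deposited table. PRLR itself had -0.05 (95% interval -0.41 to 0.31) per the authors' deposited table.

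**Figure D2:**
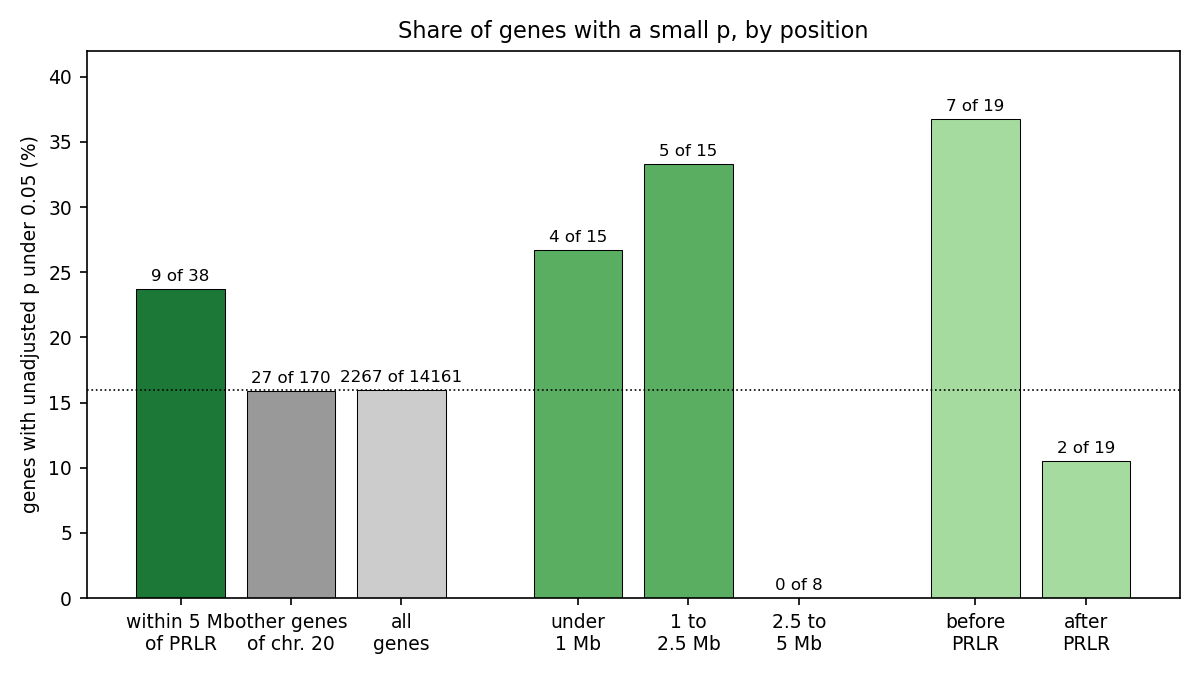
Percent of genes with an unadjusted p under 0.05 per the authors' deposited table (vertical axis) for the 38 genes within 5 Mb of PRLR, the other genes of chromosome 20 and all genes, then for the 38 genes by distance and by side of PRLR (before means lower coordinates), with counts above the bars and the share of all genes as a dotted line. The bars at 1 to 2.5 Mb and before PRLR stand at 33.3% and 36.8%, and the bar at 2.5 to 5 Mb is at 0 of 8 genes, with C9 left out.

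The cilium and flagellum genes had the lowest median of any role in the window. Per the authors' deposited table all 4 had a negative log2 fold change, 3 of them with an unadjusted p under 0.05, against 8.79% of all genes with such a p and a negative value. The median of the 4 was -0.51, against -0.01 over all genes per the authors' deposited table. The list was drawn up with earlier results of these data known, so its direction is no independent evidence. CPLANE1 is needed to assemble primary cilia, and human variants in it cause Joubert syndrome. It lies on the + strand of chromosome 20 from 37045115 to 37150094 (ARS-UCD1.2, ENSBTAG00000000586), 1.94 Mb from PRLR. Its value per the authors' deposited table amounted to a 1.47-fold lower level in SLICK than in FREE liver (95% interval of the log2 fold change -0.82 to -0.29, unadjusted p 3.51e-04), at an average of 2.59 log2 CPM. That p ranked 95 among the 14161 genes per the authors' deposited table.

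The genes on either side of CPLANE1 did not share its value. The nuclear pore gene NUP155, which ends 19246 bases before it, had a log2 fold change of 0.13 (95% interval -0.03 to 0.30) per the authors' deposited table. NIPBL, the loader of cohesin onto DNA, starts 14785 bases after it and had 0.08 (95% interval -0.11 to 0.26) per the authors' deposited table. Both intervals lie above that of CPLANE1, although the differences between genes were not tested.

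SPEF2, a protein of the flagellar axoneme in mouse sperm and motile cilia, lies 0.565 Mb from PRLR (38369475 to 38572090, - strand) and is its nearest measured neighbour on the lower-coordinate side. The authors' deposited table gave it a log2 fold change of -0.54 (SE 0.24), unadjusted p 0.0367, adjusted p 0.281, at an average of 1.05 log2 CPM. CAPSL, a calcyphosine-like calcium-binding protein, lies 0.779 Mb from PRLR (38238510 to 38275199, + strand). Its log2 fold change per the authors' deposited table was -0.47 (SE 0.14), unadjusted p 0.00337, adjusted p 0.109. TTC23L, named for its tetratricopeptide repeats, had -0.15 (95% interval -0.57 to 0.28) per the authors' deposited table. Bile duct cells of the liver bear primary cilia, and their 6 markers (SPP1, KRT7, SOX9, EPCAM, CFTR and KRT19) were all measured. Of these 6, per the authors' deposited table, 4 had a negative log2 fold change with an unadjusted p under 0.05, against 8.79% of all genes. An adjusted p of 0.05 was passed by 0 of them. Across the 6 markers the values ran from -2.44 (SPP1) to -0.03 (KRT19) with a median of -0.75. Their part in the values of the cilium genes was not tested, and in whole liver fewer cells of a type and less RNA per cell cannot be told apart.

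**Figure D3:**
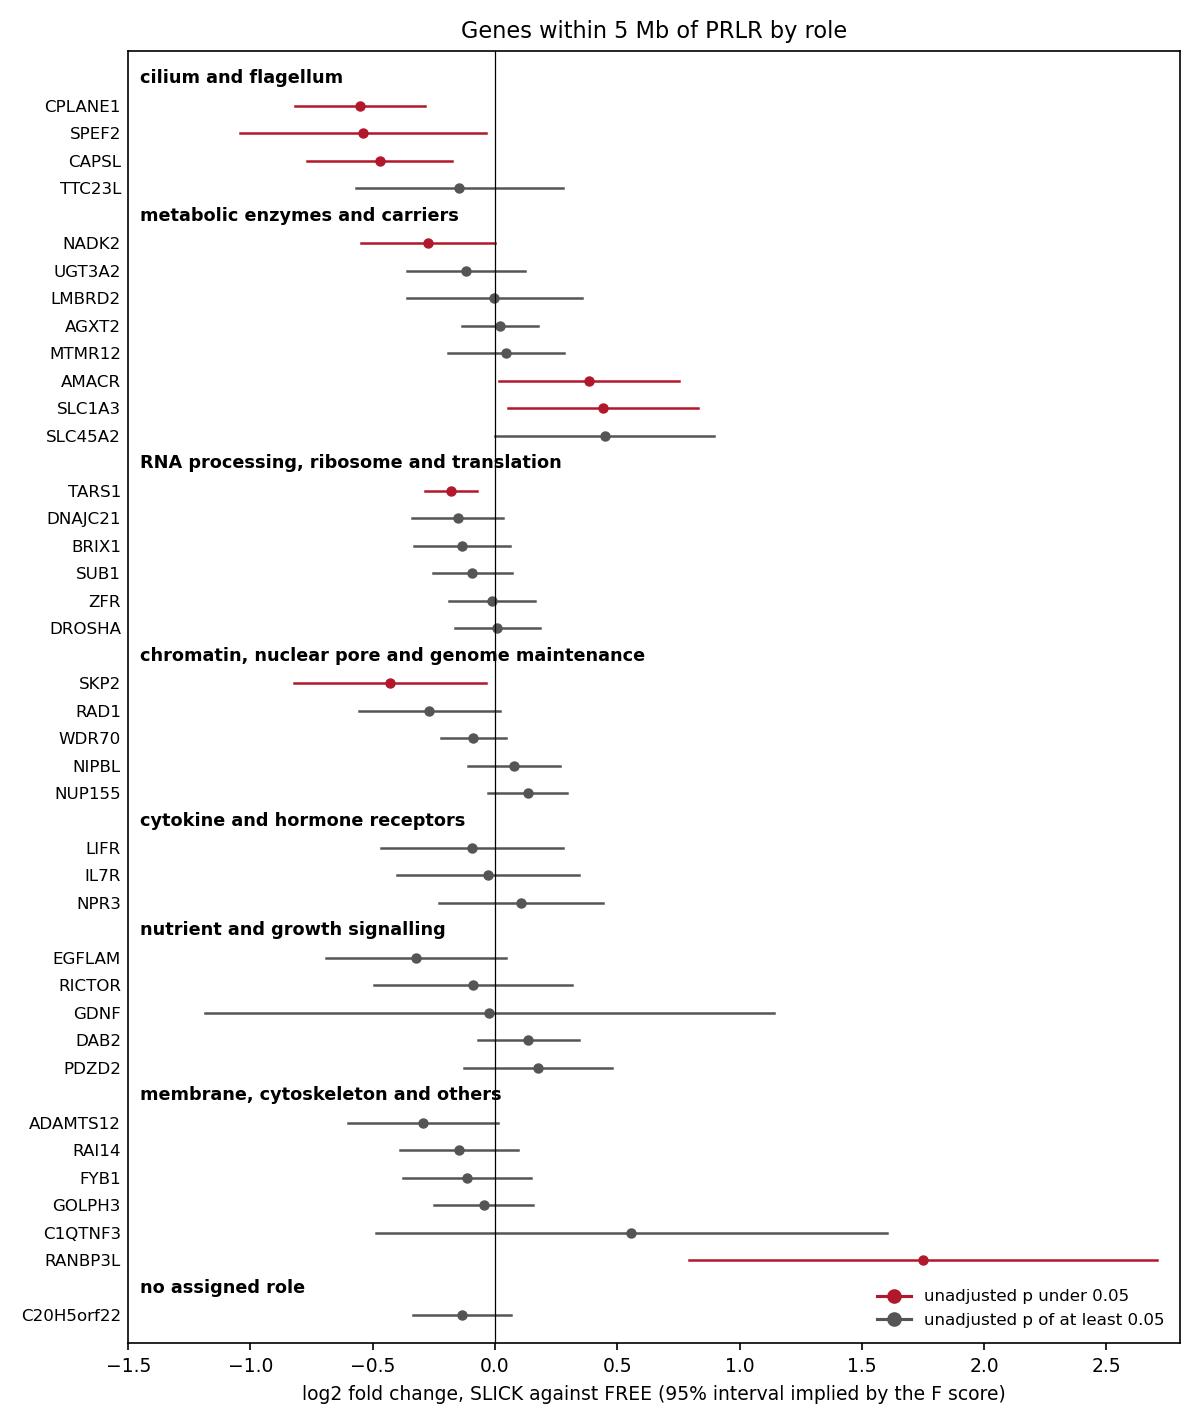
Log2 fold change of SLICK against FREE liver (horizontal axis, points from the authors' deposited table, lines the 95% intervals derived from its F score) for each of the 38 genes, grouped by role. CPLANE1, SPEF2 and CAPSL lie between -0.55 and -0.47 and RANBP3L at 1.75, while most intervals of the other genes cross 0.

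RANBP3L lies between the glutamate transporter SLC1A3 and NADK2, 1.07 Mb from PRLR (37936883 to 37991125, + strand, ENSBTAG00000008430). Its log2 fold change per the authors' deposited table amounted to a 3.36-fold higher level in SLICK than in FREE liver, with a 95% interval of 0.79 to 2.71 on the log2 scale and an unadjusted p of 0.00116. It is among the least abundant genes of the window, at an average of -1.61 log2 CPM, or 0.328 CPM, per the authors' deposited table. Whether 1 or a few libraries carry the difference was not examined. NADK2, the mitochondrial NAD kinase, starts 7692 bases after RANBP3L on the same strand and had a log2 fold change of the opposite sign per the authors' deposited table, -0.28 (SE 0.13, unadjusted p 0.0484).

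SLC1A3, on the other side of RANBP3L, takes up glutamate and aspartate and had a log2 fold change of 0.44 (SE 0.19, unadjusted p 0.0275, adjusted p 0.248) per the authors' deposited table. Its average level was 0.41 log2 CPM per the authors' deposited table, so it too is a gene of low abundance here. The 4 genes of the window below 0 log2 CPM per the authors' deposited table were RANBP3L, TTC23L, C1QTNF3 and GDNF. C1QTNF3, a secreted adipokine, had 0.56 (SE 0.50) and the neurotrophic factor GDNF -0.02 (SE 0.56) per the authors' deposited table, errors too large to show a difference of the size seen in CPLANE1.

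**Figure D4:**
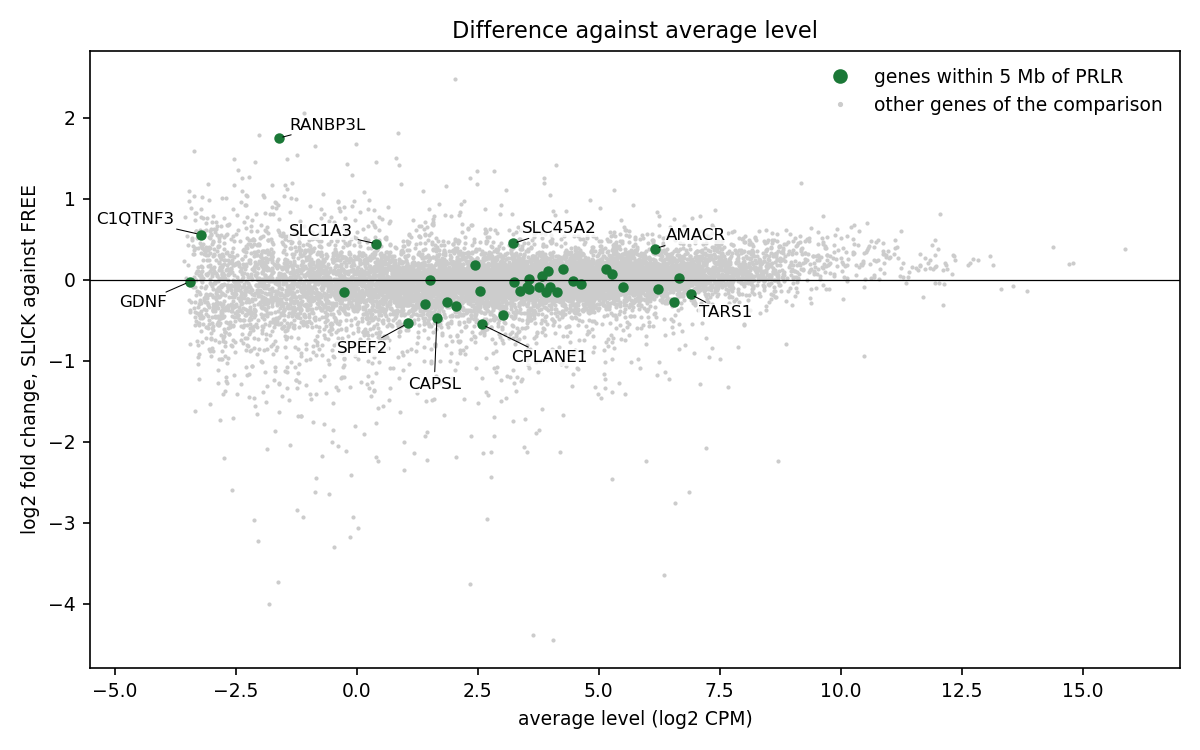
Log2 fold change of SLICK against FREE liver (vertical axis) by average level in log2 CPM (horizontal axis), both from the authors' deposited table, for the 38 genes within 5 Mb of PRLR and the other genes. RANBP3L lies at -1.61 log2 CPM, where other genes also scatter widely, and CPLANE1 at 2.59 log2 CPM.

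The list headed metabolic enzymes and carriers, a loose heading that also takes in MTMR12 and LMBRD2, held 8 genes. Of these, 2 had a positive and 1 a negative log2 fold change at an unadjusted p under 0.05 per the authors' deposited table, against 7.22% and 8.79% of all genes. An adjusted p of 0.05 was passed by 0 of these 8 genes. Their median log2 fold change was 0.03, against -0.01 over all genes per the authors' deposited table. AMACR, the racemase that prepares branched-chain fatty acids and bile acid precursors for peroxisomal oxidation, had 0.38 (SE 0.17, unadjusted p 0.0408, adjusted p 0.294) per the authors' deposited table. It lies 0.737 Mb from PRLR (39765282 to 39781002, + strand). SLC45A2, a melanosomal transporter known for pigmentation, starts 8133 bases after AMACR on the same strand. Its log2 fold change per the authors' deposited table was 0.45 (SE 0.21, unadjusted p 0.0502), close to that of AMACR. The 7 hepatocyte markers had a median log2 fold change of 0.31 per the authors' deposited table, from -0.19 (APOA1) to 0.49 (CPS1). Of these markers, 3 had an unadjusted p under 0.05, all with a positive value, against 7.22% of all genes. Their part in the values of AMACR and NADK2 was not tested.

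The remaining genes of this group had values nearer to 0. UGT3A2, a UDP-glycosyltransferase, had a log2 fold change of -0.12 (95% interval -0.36 to 0.12) per the authors' deposited table. The myotubularin-family protein MTMR12 had 0.05 (95% interval -0.19 to 0.28) and LMBRD2 -0.0032 (95% interval -0.36 to 0.35) per the authors' deposited table. AGXT2, TARS1, AMACR, NADK2 and UGT3A2 were, in that order, the most abundant of the 38 per kilobase of gene length, at 5.78, 5.54, 5.47, 4.69 and 4.25 log2 CPM per kilobase from the authors' deposited table. CPLANE1, at -0.68, and RANBP3L, at -2.52 log2 CPM per kilobase, stood 30th and 36th in that order of levels.

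Genes of RNA processing, ribosome assembly and translation numbered 6. The authors' deposited table gave 5 of them a negative log2 fold change (83.3%), against 65.8% of the window and 51.8% of all genes. The median was -0.11, against -0.09 for the window and -0.01 over all genes. TARS1 alone had an unadjusted p under 0.05 (16.7% of the 6), near the 16.0% of all genes. TARS1, which charges the tRNA for threonine, had a small difference with the smallest error of the window, a log2 fold change of -0.18 (SE 0.05, unadjusted p 0.00224, adjusted p 0.0945) per the authors' deposited table. It is 1.29 Mb from PRLR (40309676 to 40332876, - strand) and averaged 6.90 log2 CPM per the authors' deposited table. DNAJC21 and BRIX1 both act in assembly of the large ribosomal subunit and lie next to each other, 0.163 and 0.188 Mb from PRLR. Their log2 fold changes per the authors' deposited table were -0.15 (95% interval -0.34 to 0.03) and -0.13 (95% interval -0.33 to 0.06). The coactivator SUB1 had -0.09, the RNA-binding protein ZFR -0.01 and DROSHA, which cuts primary microRNAs, 0.01 per the authors' deposited table, with unadjusted p-values from 0.241 to 0.905.

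Among 5 genes of chromatin, nuclear pore and genome maintenance, SKP2 was the one with an unadjusted p under 0.05, against 16.0% of all genes. SKP2, the F-box protein that marks the cell cycle inhibitor p27 for destruction, had a log2 fold change of -0.43 (SE 0.19, unadjusted p 0.0329, adjusted p 0.272) per the authors' deposited table. It overlaps NADK2 by 4173 bases on the opposite strand (SKP2 38040008 to 38088539), and both had negative values. RAD1, a subunit of the DNA damage clamp, had -0.27 (95% interval -0.56 to 0.02) per the authors' deposited table and overlaps BRIX1 by 904 bases, again on opposite strands. Whether counting of the TruSeq libraries used strand is not stated, so reads from the overlaps cannot be told apart. NUP155 and NIPBL are given above, and WDR70 had -0.09 (95% interval -0.22 to 0.04) per the authors' deposited table.

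Receptors and signalling genes of the window had no unadjusted p under 0.05 per the authors' deposited table, against 16.0% of all genes. The counts were 0 of 3 receptors and 0 of 5 signalling genes, and with so few genes they lie near that share. The signalling heading is loose and also takes in DAB2, EGFLAM and PDZD2. LIFR, the receptor of leukaemia inhibitory factor and like PRLR a class I cytokine receptor, had a log2 fold change of -0.09 (95% interval -0.47 to 0.28) per the authors' deposited table. The interleukin 7 receptor IL7R, 0.719 Mb from PRLR and of the same receptor class, had -0.03 (95% interval -0.40 to 0.34) per the authors' deposited table. NPR3, the clearance receptor of natriuretic peptides, had 0.11 (95% interval -0.23 to 0.44) per the authors' deposited table. RICTOR, the defining subunit of the mTORC2 kinase complex, had -0.09 (95% interval -0.50 to 0.31) and the endocytic adaptor DAB2 0.14 (95% interval -0.07 to 0.34) per the authors' deposited table. The extracellular matrix protein EGFLAM had -0.32 (95% interval -0.69 to 0.04) and the PDZ-domain protein PDZD2 0.18 (95% interval -0.13 to 0.48) per the authors' deposited table.

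The metalloprotease ADAMTS12 had a log2 fold change of -0.30 (95% interval -0.60 to 0.01) and the actin-associated protein RAI14 -0.15 (95% interval -0.39 to 0.10) per the authors' deposited table. FYB1, an adaptor of T cells and platelets, had -0.12 (95% interval -0.38 to 0.15) per the authors' deposited table. Of 5 T and NK cell markers, 0 had an unadjusted p under 0.05, against 16.0% of all genes. The Golgi protein GOLPH3 had -0.05 and C20H5orf22 -0.14 per the authors' deposited table, with unadjusted p-values of 0.633 and 0.172. Over the window, 29 of the 38 genes had an unadjusted p of at least 0.05 per the authors' deposited table. For 22 of these 29 the 95% interval stayed within 0.5 log2 units of 0 either way, and for 7 it reached further.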

How the data were processed

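Members and gene lists were chosen with earlier results of these data known. Bovine liver RNA was sequenced as TruSeq or SMARTer libraries, per the labels. HISAT2 2.1.0, featureCounts, Subread, edgeR and ARS-UCD1.2 are named, without roles, in the submitters' processing notes. Per the file headers, gene models were those of Ensembl release 100 and featureCounts was version 1.6.2 for the SMARTer libraries.

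Per the file headers, the authors deposited for each gene a p-value before and after adjustment, the F score behind it, the log2 fold change and the mean log2 CPM. The 70 library columns of the 4 tables match no sample label and were not used, so depth per sample is unknown here and the planned refits of the counts were not run. The names of 17 of 18 library columns are common to the TruSeq counts and the comparison, and 1 occurs in each alone. Of 14246 rows, 85 repeat a gene and were dropped.

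Positions and lengths came from the annotation columns of the count tables. A gene's midpoint was taken between its lowest start and highest end. The window held 63 annotated genes, of which the comparison covers 40, including PRLR and C9. The other 23, among them OSMR, RXFP3, CDH6 and small RNAs, were not analysed here. On the lower-coordinate side the first gene inside the bound was DAB2 at 4.00 Mb (log2 fold change 0.14 per the authors' deposited table) and the first outside PTGER4 at 5.28 Mb (-0.28). On the other side they were DROSHA at 3.02 Mb (0.01) and CDH10 at 9.87 Mb (-0.06).

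SE was the absolute log2 fold change divided by the square root of F. The F and p of 500 genes implied the same 18.7 denominator degrees of freedom, which set the 95% intervals. These steps were run on simulated data built with that same relation of SE, F and log2 fold change. Such data cannot show how closely the relation holds in the authors' test, the least abundant genes included. Genes were named by a rule: CPLANE1 and RANBP3L, the 15 smallest p, the 5 largest values each way among genes averaging at least 0 log2 CPM, the 3 nearest to PRLR on each side and up to 4 with the smallest p of each role; the other members are named because every member is accounted for. Python 3.11.15, numpy 2.4.6, pandas 2.3.3, scipy 1.17.1 and matplotlib 3.10.9 were used.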

Additional observations from a re-analysis of the deposited data

How the results depend on the processing

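The count of genes past an adjusted p of 0.05 stayed at 0 with windows of 1, 2.5 and 10 Mb, with distances between gene edges, with genes averaging at least 0 log2 CPM, with PRLR and C9 added (C6 and C7 lie outside the window), and with the adjustment recomputed over distinct genes. In an alternative chosen after seeing the data, 30 genes that overlap no other annotated gene, it was also 0. With a bound of 0.10 it was 3, against 2.77% of all genes. The count with an unadjusted p under 0.05, 9 of 38, was 4 of 15 within 1 Mb, against 16.0% of all genes. In the other windows it was 9 of 30 within 2.5 Mb and 12 of 59 within 10 Mb. PRLR and C9 stayed left out by name, as did C6 (5.66 Mb) and C7 (5.47 Mb), which lie inside 10 Mb. Per the authors' deposited table their unadjusted p was 0.0350 for C6, 0.0339 for C9, 0.0690 for C7 and 0.791 for PRLR. With PRLR and C9 added to the 5 Mb window the count was 10 of 40. At a bound of 0.01 it was 4 of 38, against 6.36% of all genes. The median absolute log2 fold change ranged from 0.12 to 0.15 over the windows. Recomputing the adjustment left all 28 genes named by the rule above 0.05, and CPLANE1 at 0.0523. No paired analysis was possible because SLICK and FREE are different daughters and the library columns carry no replicate numbers. The replicate numbers of the labels only count animals within each group of genotype and sire, so they define no pairs. Refits with other scalings or without single replicates were not run because the library columns match no labelled sample. Columns that match no sample were left unused throughout, so whether 1 animal carries a value was not examined. The precision of each value is known from the authors' F score and p-value alone.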

Other observations

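Beyond the window, chromosome 20 held 4 of 170 genes with an adjusted p under 0.10 per the authors' deposited table, against 2.77% of all genes. They are named here after their values were seen. The nearest to PRLR was NNT, the mitochondrial transhydrogenase that makes NADPH from NADH, at 7.84 Mb, with a log2 fold change of 0.35 (SE 0.09, adjusted p 0.0722) per the authors' deposited table. FST, the activin-binding protein follistatin, at 13.5 Mb, had -1.20 (SE 0.31, adjusted p 0.0778) per the authors' deposited table. MARVELD2, the tight junction protein tricellulin, at 28.7 Mb, had -0.32 (SE 0.09, adjusted p 0.0898) per the authors' deposited table. The elongase ELOVL7, at 20.5 Mb, was the 1 gene of the chromosome past 0.05, with -3.06 (adjusted p 0.0411) per the authors' deposited table. Over all genes, 0.501% passed that bound.

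Chromosome 20 as a whole had an unadjusted p under 0.05 for 38 of 212 genes (17.9%) per the authors' deposited table, the 6th highest share of 30 chromosomes. The shares ran from 12.2% on chromosome 12 to 21.0% on chromosome 8 per the authors' deposited table. Of 37 pairs of adjacent genes within 5 Mb of PRLR, 21 had log2 fold changes of the same sign (56.8%), against 45.0% of 169 such pairs among the other genes of chromosome 20 and 52.5% of adjacent pairs over all genes per the authors' deposited table. Pairs were formed within each set, so in the window SPEF2 and AGXT2 flank PRLR, and DAB2 and FYB1 flank C9. The pairs over all genes keep PRLR and C9 in.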
